A study of Mus musculus with 11 samples.

Results

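Open chromatin that was listed only after loss of *Grhl3* is described here: the regions with an ATAC-seq peak in at least 1 *Grhl3*-cKO library and in no WT library. The peak lists of the 4 ATAC-seq libraries were pooled and overlapping or touching peaks were merged into 42950 regions. Of these, 5870 overlapped a peak of *Grhl3*-cKO unwounded or *Grhl3*-cKO wounded keratinocytes and no peak of WT unwounded or WT wounded keratinocytes. They fell into 3787 regions listed in *Grhl3*-cKO unwounded keratinocytes only, 1490 listed in *Grhl3*-cKO wounded keratinocytes only and 593 listed in both. With every list cut to the length of the shortest, 1372 were in the unwounded list only and 1623 in the wounded list only, and with peaks of at least 4-fold enrichment 1617 and 2000, so the order of the 2 subsets turned. The regions were chosen by the peak calls of these same libraries, so their peak values are given as a description with no test.

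The study asked what GRHL3 does in mouse keratinocytes that close a skin wound. *Grhl3*-cKO mice were Krt14-Cre;Grhl3fl/fl animals, in which Cre under the keratinocyte promoter of *Krt14* removes the floxed gene. WT mice were littermates carrying Krt14-Cre. All were on C57BL/6 (C57BL/6J in the paper), aged 8 weeks and of both sexes. Wounded keratinocytes came from the outer 1 mm of tissue around 4-mm punch wounds at day 3, unwounded keratinocytes came from back skin away from the wounds, and both were sorted as cells with CD49f and without CD45, CD31 and TER119. ATAC-seq, which maps DNA that a transposase can reach, was 1 library per condition, pooled from 4 wounds of 2 mice, so no ATAC value has a replicate error and p-values of peaks compare reads within 1 library. RNA-seq of the same 4 conditions gave 7 libraries, 2 per group except for 1 library of *Grhl3*-cKO unwounded keratinocytes, with 13497283 to 16807451 counts on genes. Nothing in the labels says whether replicates came from separate animals, so p-values measure the spread between these libraries.

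The RNA library of *Grhl3*-cKO unwounded keratinocytes stood apart from the other 6 in its sex-linked genes. It had 14854 counts of *Xist*, the RNA that silences an X chromosome, where the others had 3 to 32, and 0 summed counts of 4 Y-linked genes, where the others had 2580 to 3589. The genotype is taken from the label, since gene counts do not separate the deleted exons of *Grhl3*: there were 1029 counts in that library, 1765 and 1491 in the *Grhl3*-cKO wounded libraries and 1388 to 1893 in the WT libraries. Sex and genotype cannot be told apart for this library, and the count of genes past 2-fold near all regions is also given without genes on chromosomes X and Y. In CPM, counts scaled to a common library size, its AP-1 and stress genes summed to 21200, against 9610 to 14400 in the others. Its suprabasal genes summed to 12600, against 5380 to 10000, and its wound genes to 3380, against 5170 to 12100.

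GRHL3 belongs to the grainyhead family of transcription factors, which bind DNA as dimers at sites close to AACCGGTT and act in epidermal barrier formation, epithelial junctions and wound closure. Members of the family can open chromatin at enhancers of epithelial genes. AP-1, p63, C/EBP, TEAD and RUNX factors also act at keratinocyte enhancers, SP/KLF and ETS factors often at promoters, and CTCF at sites that insulate neighbouring domains.

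The 4 lists differed in length, which sets how many regions can be missing from a genotype. There were 10769 peaks in WT unwounded, 36872 in WT wounded, 29364 in *Grhl3*-cKO unwounded and 22474 in *Grhl3*-cKO wounded keratinocytes, covering 4430, 18000, 13500 and 10000 kb. The genotype with the longer list was therefore WT after wounding and *Grhl3*-cKO without it. Regions found only with loss of *Grhl3* made up 4380 of the 29184 *Grhl3*-cKO unwounded regions (15.0%) and 2083 of the 22291 *Grhl3*-cKO wounded regions (9.34%). The opposite set, listed only in WT keratinocytes, held 10165 regions, and 9524 regions were in all 4 lists. The WT wounded list decided most of the count: without it, 22622 of 33336 merged regions had a *Grhl3*-cKO peak and no WT unwounded peak. With every list cut to the length of the shortest there were 3552 such regions, and with peaks at a q of at most 0.01 there were 3845. The methods give a lower limit of reads that all ATAC samples passed and not the depth of each library, and the part of depth in these counts was not tested.

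Most of these regions were narrow and weak. Their median width was 252 bases (range 183 to 1235), against 449 bases for all merged regions and 761 bases for regions in all 4 lists. Regions listed only in WT keratinocytes were nearly as narrow, with a median of 277 bases. The highest −log10 p that the peak caller gave a region had a median of 4.43, against 5.96 for all merged regions, 10.1 for regions in all 4 lists and 4.71 for regions listed only in WT keratinocytes, the highest being taken over all lists that held the region. Within 1 list at a time, the median −log10 p in *Grhl3*-cKO unwounded keratinocytes was 4.65 for regions in both *Grhl3*-cKO lists and 4.21 for regions in the unwounded list alone. In *Grhl3*-cKO wounded keratinocytes it was 5.04 for regions in both lists and 4.68 for those in the wounded list alone. The median width was 389 bases for regions in both lists, which join the peaks of 2 libraries, and 241 and 239 bases for regions in the unwounded or the wounded list alone. The fold enrichment of the peak over its local background had a median of 3.46 (range 2.02 to 7.09) in *Grhl3*-cKO unwounded and 3.82 (2.23 to 7.88) in *Grhl3*-cKO wounded keratinocytes. A −log10 q of at least 2 was reached by 1619 of the 4380 unwounded peaks (37.0%) and 1169 of the 2083 wounded peaks (56.1%), where the shares over all regions of those lists were 72.1% and 83.0%. The widest region, chr10:80147888-80149122, lay at the promoter of *Midn* with a fold enrichment of 3.24 and a −log10 p of 4.24 in *Grhl3*-cKO unwounded keratinocytes. The weakest, an intronic region at chr7:43799948-43800168 near *2310002F09Rik*, had a fold enrichment of 3.0 and a −log10 p of 3.33.

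These regions lay at a wide range of distances from chromatin that was open in WT keratinocytes. The nearest WT peak was a median of 12132 bases away, 262 regions (4.46%) had one within 500 bases and 2682 (45.7%) within 10 kb. Such distances were not computed for other sets of regions, so these shares have no background. The closest gaps were 2 bases, at chr11:112990276-112990476 (fold 3.56, −log10 p 4.53), chr19:43916817-43917072 (fold 3.71, −log10 p 4.75) and chr5:32073003-32073185 (fold 3.82, −log10 p 4.85), all listed in *Grhl3*-cKO unwounded keratinocytes only. Just outside the rule were 3 regions in which a *Grhl3*-cKO peak and a WT wounded peak shared 1 base. In the exonic region at chr14:70659145-70659935 near *Npm2* the −log10 p was 4.66 in WT wounded, 4.37 in *Grhl3*-cKO unwounded and 4.38 in *Grhl3*-cKO wounded keratinocytes. The values at chr3:62348287-62349685 near *9330121J05Rik* were 5.45, 7.38 and 5.32 in the same order, and in the *Dapk2* intron at chr9:66240508-66240984 they were 4.32 in WT wounded and 4.26 in *Grhl3*-cKO unwounded keratinocytes. Apart from the region near *9330121J05Rik*, the peaks of these few regions at the edge of the rule were of similar strength on either side. The whole sets differed more. The median −log10 p in *Grhl3*-cKO unwounded keratinocytes was 4.25 for *Grhl3*-cKO-only regions and 5.89 for regions with peaks in both genotypes.

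Few of these regions were shared by unwounded and wounded *Grhl3*-cKO keratinocytes. The 593 regions in both lists were 13.5% of the 4380 unwounded regions and 28.5% of the 2083 wounded regions. Over all merged regions, 64.0% of those with a *Grhl3*-cKO unwounded peak and 83.8% of those with a *Grhl3*-cKO wounded peak were in both lists. At promoters the shares were higher, 17.2% and 41.4%, against 12.9% and 26.5% elsewhere. The direction was the same over all merged regions. There, promoters were 41.6% of regions in both lists, against 34.1% of those with an unwounded and 37.6% with a wounded *Grhl3*-cKO peak. The rule that no WT peak may overlap removes regions that are open in many libraries. The lower shares of *Grhl3*-cKO-only regions in both lists therefore follow in part from how they were chosen.

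By position, the regions were mostly introns and intergenic DNA. A total of 837 (14.3%, Wilson 95% interval 13.4 to 15.2, counting error only) overlapped a promoter, taken as 1000 bases before to 100 bases after an annotated gene start, 328 (5.59%) an exon, 2366 (40.3%) an intron and 2339 (39.8%) none of these. Promoters made up 27.6% of all merged regions and 54.1% of regions in all 4 lists, but 13.1% (12.5 to 13.8) of regions listed only in WT keratinocytes. The regions exclusive to either genotype therefore had promoter shares near each other and well under that of shared regions. Within the *Grhl3*-cKO set the share was 14.7% in the unwounded list alone, 11% in the wounded list alone and 19.6% in both lists. The median distance to the nearest gene start was 12145.5 bases, against 7954 for all merged regions, and 2664 regions (45.4%) lay within 10 kb of a gene start. For regions listed only in WT keratinocytes the values were close, at 11629 bases and 46.1%. Nearest genes coded for protein at 49.4% of unwounded-only regions, 40.7% of wounded-only regions and 51.4% of regions in both lists, while processed pseudogenes, inactive gene copies made through RNA, were nearest at 14.5%, 19.2% and 12.5%. A window of 300 bases at the middle of the *Grhl3*-cKO peak had a median GC content of 48.3%, against 50.3% over all merged regions. In regions listed only in WT keratinocytes it was also 48.3%. Windows over 50% repeat were 9.91% of these regions, 4.23% of all merged regions and 5.10% of regions listed only in WT keratinocytes.

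The letters bound by grainyhead factors were rare in these windows. AACCGGTT, searched on both strands as all motifs here, was in 13 of 5870 windows (0.221%, interval 0.129 to 0.379), against 0.298% of all merged regions, and AACCAGTT was in 76 (1.29%), against 1.56%. The share of all regions lay within the interval for each (1.04 to 1.62 for AACCAGTT). Windows with either of them were 88 (1.5%, 1.22 to 1.84), against 1.85% (1.73 to 1.98) of all regions, a share just above the interval. Since 3705 of the regions (63.1%) were shorter than the window, letters can lie beside a region: AACCGGTT was inside the region itself in 10 of the 13 cases and AACCAGTT in 60 of the 76. The AP-1 letters TGANTCA were in 1605 windows (27.3%), against 28.1% of all regions, with 25.5% (24.1 to 26.9) in the unwounded list alone, 31.2% (28.9 to 33.6) in the wounded list alone and 29.7% in both. Wounded-only regions thus carried AP-1 letters more often than unwounded-only regions, by intervals that cover counting error only. The C/EBP letters TTGCNNAA were in 14.7% (all regions 13.8%), the RUNX letters TGTGGTT in 6.76% (6.13%), the TEAD letters CATTCCA in 6.06% (5.91%), a CTCF core motif in 4.19% (3.58%) and the p63 double half-site motif in 1.41% (1.32%). Letters typical of promoters were less frequent than over all regions, with the SP/KLF letters GGGCGG in 15.1% (24.7%) and the ETS letters CCGGAAG in 3.37% (5.42%). In regions of all 4 lists these last shares were 42.9% and 10.3%, and in regions listed only in WT keratinocytes 14.8% and 2.67%. A match of letters is a description of the sequence and says nothing of binding.

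Of the 13 regions with AACCGGTT in their window, 1 was in both *Grhl3*-cKO lists, and it lay at *Actb*, the gene of cytoplasmic actin. The region chr5:142906030-142906738 had fold enrichments of 3.02 in *Grhl3*-cKO unwounded and 3.36 in *Grhl3*-cKO wounded keratinocytes, with −log10 p of 4.19 and 4.32. *Actb* RNA was high in every library, from 45937 counts in *Grhl3*-cKO unwounded to 76484 counts in WT wounded replicate 1. Another region with these letters in its window, chr1:130878359-130878541, overlapped an exon inside *Fcmr* and was 7455 bases from the start of *Il24*, a cytokine gene of the IL-20 family, with a fold enrichment of 3.86 and a −log10 p of 4.94 in *Grhl3*-cKO unwounded keratinocytes. The letters, at chr1:130878559-130878566, were outside it, 17 bases past its end. A WT wounded peak began 22 bases past that end, inside the letters, and this region was chosen for display after its values were seen. *Il24* had 59 and 41 counts in WT unwounded, 156 and 229 in WT wounded, 6 in *Grhl3*-cKO unwounded and 158 and 151 in *Grhl3*-cKO wounded keratinocytes. Its counts were lowest in the RNA of the condition whose peak list held the region, and RNA and ATAC-seq libraries are separate samples. The middle windows of both regions are shown because they hold the grainyhead letters, inside the region for *Actb* and beside it for *Il24*, from the + strand of RefSeq GRCm38.p6 at chr5:142906231-142906530 and chr1:130878300-130878599, with AACCGGTT and the SP/KLF letters or their complement in capitals.
Actb region: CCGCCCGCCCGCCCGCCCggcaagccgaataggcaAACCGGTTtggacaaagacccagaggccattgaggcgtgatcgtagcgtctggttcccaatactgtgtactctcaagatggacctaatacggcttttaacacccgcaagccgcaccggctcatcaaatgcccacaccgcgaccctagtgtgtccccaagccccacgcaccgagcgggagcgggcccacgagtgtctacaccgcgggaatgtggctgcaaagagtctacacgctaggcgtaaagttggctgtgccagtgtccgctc
Il24 region: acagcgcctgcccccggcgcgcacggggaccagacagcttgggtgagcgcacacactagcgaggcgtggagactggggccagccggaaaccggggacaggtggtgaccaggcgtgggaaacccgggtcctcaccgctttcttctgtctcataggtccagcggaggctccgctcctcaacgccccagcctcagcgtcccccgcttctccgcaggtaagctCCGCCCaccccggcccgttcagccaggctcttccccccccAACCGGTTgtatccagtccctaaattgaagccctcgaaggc

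Among regions listed in *Grhl3*-cKO unwounded keratinocytes only, the strongest lay in intergenic DNA or introns, 9790 bases or more from a gene start. The highest −log10 p was 10.4, with a fold enrichment of 6.25, at chr11:89239912-89240143, which was 62189 bases from the start of *Nog*, the gene of a secreted antagonist of BMP signals. It was 8692 bases from the nearest WT peak and contained no repeat. Next were a region nearest to *Gm29050* and inside *Arid1b*, a subunit gene of a chromatin remodelling complex, at chr17:5260525-5260773 (fold 6.01, −log10 p 9.79), and regions nearest to *Gm7041* at chr5:151318302-151318516 (5.87 and 9.40) and *Gm48845* at chr10:14215608-14215818 (4.82 and 9.16). The region in an intron of *4930563M21Rik* at chr9:55970917-55971142 (5.39 and 8.29) was repeat over its whole window, 100%. At promoters of protein-coding genes the strongest were *Nop2*, an rRNA methyltransferase gene, at chr6:125131752-125131973 (fold 5.30, −log10 p 8.06), and *Stat6*, the transcription factor of IL-4 signals, at chr10:127641984-127642168 (4.88 and 7.98). They were followed by *Tmem248* at chr5:130222188-130222418 (4.99 and 7.37), *Wbp2* at chr11:116086866-116087470 (4.81 and 7.15) and *Pigu*, which acts in attaching GPI anchors to proteins, at chr2:155357302-155357512 (4.86 and 7.04). The promoter regions at *Nop2*, *Wbp2* and *Pigu* were 33459, 51174 and 24077 bases from any WT peak, and those at *Stat6* and *Tmem248* 1633 and 4523 bases.

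RNA of these genes did not follow a single direction. *Nog* had 60 and 35 counts in WT unwounded, 31 and 19 in WT wounded, 107 in *Grhl3*-cKO unwounded and 62 and 41 in *Grhl3*-cKO wounded keratinocytes, the *Grhl3*-cKO unwounded library being the highest. For *Nop2* the same library was the lowest, with 553 counts against 1034 and 1128 in WT unwounded, 1061 and 744 in WT wounded and 893 and 623 in *Grhl3*-cKO wounded keratinocytes. In CPM, counts scaled to a common library size, *Stat6* was 136 in *Grhl3*-cKO unwounded and 96.6 and 130 in WT unwounded keratinocytes, *Wbp2* was 49.5 in *Grhl3*-cKO unwounded and 40.5 and 38.8 in WT unwounded keratinocytes, and *Pigu* was 16.6 against 14.2 and 15.2. With 1 library in the group, these differences have no replicate check. The window of the *Nog* region is shown as the strongest of the unwounded-only set, from the + strand at chr11:89239878-89240177, with the TEAD letters (as TGGAATG, the complement), which lay inside the region, and the AP-1 letters, 12 bases past its end, in capitals.
Nog region: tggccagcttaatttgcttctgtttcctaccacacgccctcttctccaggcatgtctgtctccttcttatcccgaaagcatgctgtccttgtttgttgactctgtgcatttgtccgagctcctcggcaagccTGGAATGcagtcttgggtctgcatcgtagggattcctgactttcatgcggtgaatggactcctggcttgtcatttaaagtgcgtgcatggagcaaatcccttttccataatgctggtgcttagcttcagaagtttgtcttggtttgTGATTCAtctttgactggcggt

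The strongest regions listed in *Grhl3*-cKO wounded keratinocytes only all lay in introns. The highest was chr7:96746028-96746266, inside *Tenm4*, a gene of a cell surface teneurin, and 55283 bases from the start of the antisense gene *Gm15413*, with a fold enrichment of 5.83 and a −log10 p of 10.1. A region nearest to *AC126031.4* and inside *Gnaq*, a G protein gene, at chr19:16367341-16367551 had values of 6.40 and 10.1, and a region in *Parp8*, of the ADP-ribosyltransferase family, at chr13:117018292-117018546 had 5.86 and 9.63. Those in *Cfap43* at chr19:47826531-47826744 (6.22 and 9.63) and, nearest to *Gm44999*, in *Shank2* at chr7:144134138-144134332 (6.18 and 9.54) were repeat over 100% of their windows. At promoters of protein-coding genes the strongest were *Dohh*, whose enzyme makes the hypusine residue of a translation factor, at chr10:81384235-81384422 (fold 5.45, −log10 p 7.96), and the zinc finger gene *Zfp454* at chr11:50887391-50887609 (5.19 and 7.42). Then came *Ccdc181* at chr1:164275530-164275864 (4.74 and 7.38), which had a WT peak 430 bases away, *Tanc2*, a scaffold protein gene, at chr11:105589720-105589983 (4.91 and 6.80), and *Atpif1*, an inhibitor of the mitochondrial ATP synthase, at chr4:132533452-132533643 (4.87 and 6.73).

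None of these promoter regions came with an RNA difference between the wounded groups larger than the spread between replicates. *Dohh* had 444 and 329 counts in WT wounded and 329 and 382 in *Grhl3*-cKO wounded keratinocytes, a log2 fold change of 0.03 (SE 0.27, unadjusted P = 0.913). *Tanc2* had 3509 and 2871 against 2612 and 2575 counts (log2 fold change −0.15, SE 0.16, unadjusted P = 0.371), and *Atpif1* had 4984 and 4908 against 4286 and 6058 (0.21, SE 0.18, unadjusted P = 0.273). In CPM *Tanc2* was at 209 and 187 in WT wounded and 179 and 178 in *Grhl3*-cKO wounded keratinocytes. How many of all genes separate the wounded groups in this way was not counted, so nothing is drawn from it. *Zfp454* was near the limit of detection with 7 and 0 counts in WT wounded and 1 and 15 in *Grhl3*-cKO wounded keratinocytes. *Gm15413* had 0 and 0 counts in WT unwounded, 3 and 0 in WT wounded, 22 in *Grhl3*-cKO unwounded and 8 and 14 in *Grhl3*-cKO wounded keratinocytes. Whether counting used the strand is not stated, so reads of this antisense gene and of *Tenm4* cannot be told apart. The window of this region is shown as the strongest of the wounded-only set, from the + strand at chr7:96745997-96746296, with the complement of the C/EBP letters in capitals.
Gm15413 region: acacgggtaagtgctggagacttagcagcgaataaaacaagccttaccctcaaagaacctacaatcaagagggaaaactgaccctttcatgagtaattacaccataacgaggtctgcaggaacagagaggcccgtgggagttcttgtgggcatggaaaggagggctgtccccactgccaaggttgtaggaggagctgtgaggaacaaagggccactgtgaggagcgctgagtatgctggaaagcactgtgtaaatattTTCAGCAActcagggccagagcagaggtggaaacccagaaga

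The strongest regions of the whole set were in both *Grhl3*-cKO lists, and most stood in a single cluster of zinc finger genes on chromosome 2, a family of genes for DNA-binding proteins. The highest was the promoter of *Gm14305* at chr2:176708001-176708717, with fold enrichments of 6.77 in *Grhl3*-cKO unwounded and 7.67 in *Grhl3*-cKO wounded keratinocytes and −log10 p of 17.1 and 19.2. Beside it were the promoters of *Gm14295* at chr2:176798317-176799014 (−log10 p 11 and 10.9), *Gm14296* at chr2:176927593-176928123 (11.2 and 10), *Zfp965* at chr2:175469697-175470284 (9.82 and 10.9) and *Gm4631* at chr2:175338019-175338544 (9.62 and 12.4). Between chr2:175338019 and chr2:176928123 there were 23 merged regions, of which 19 were listed only in *Grhl3*-cKO libraries, 18 of them in both lists and 15 of them at promoters. Peaks of these 18 had fold enrichments of 4.44 to 7.88 and −log10 p of 6.21 to 19.2. The boundaries of this stretch and of the others below were chosen after their values were seen. The other 4 regions, at *Gm14288*, *Gm6710*, *Gm14435* and *Gm14408*, also had a WT wounded peak, with −log10 p of 14.4, 16.4, 21.9 and 6.44, and those at *Gm6710* and *Gm14435* were in all 4 lists.

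These promoters are near-identical copies of each other. The promoter sequence of *Gm14305* was aligned to each region, extended on either side, and the best-fitting stretch on either strand was taken. In the other 17 regions in both lists this stretch was 94.7% to 98.3% identical (median 96.7%). Of the 4 regions with a WT peak, 3 held a stretch 95.7% to 97.0% identical and that of *Gm14408* one of 77.3%. Reads from such copies can fit several places equally well, and how these reads were placed is not given in the sources used here, so the assignment of a peak to a single copy is uncertain. Whether the placing of reads differed between libraries was not tested. For RNA, reads without a unique place were counted under no gene, and how many came from these copies is not known. *Gm14305* had 16 and 0 counts in WT unwounded, 13 and 0 in WT wounded, 19 in *Grhl3*-cKO unwounded and 10 and 0 in *Grhl3*-cKO wounded keratinocytes. *Gm14295* had 104 and 10, 117 and 13, 51, and 62 and 38 in that order. For *Gm14295* every *Grhl3*-cKO library lay between the WT replicates of its condition. For both genes the library numbered 2 was the lower in WT unwounded, WT wounded and *Grhl3*-cKO wounded keratinocytes. *Gm14296* had 0 counts in every library. Promoter sequence up to the gene start is shown for 3 genes listed only in *Grhl3*-cKO libraries, *Gm14305* (chr2:176708103-176708327, + strand), *Zfp967* (chr2:176520754-176521003, + strand) and *Gm14295* (chr2:176798350-176798599, + strand), and for 2 neighbouring copies that were in all 4 lists, *Gm14391* (chr2:175206925-175207174, − strand) and *Gm14440* (chr2:175274875-175275124, + strand). It is from RefSeq GRCm38.p6, cut before annotated exons, with capitals for the longest stretch that all 5 share, 54 bases, to show how alike copies inside and outside the set are.
Gm14305: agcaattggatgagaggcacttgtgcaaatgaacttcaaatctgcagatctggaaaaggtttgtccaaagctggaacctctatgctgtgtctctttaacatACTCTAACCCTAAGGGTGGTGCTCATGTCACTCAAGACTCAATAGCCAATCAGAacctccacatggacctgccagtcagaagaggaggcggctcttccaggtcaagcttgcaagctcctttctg
Zfp967: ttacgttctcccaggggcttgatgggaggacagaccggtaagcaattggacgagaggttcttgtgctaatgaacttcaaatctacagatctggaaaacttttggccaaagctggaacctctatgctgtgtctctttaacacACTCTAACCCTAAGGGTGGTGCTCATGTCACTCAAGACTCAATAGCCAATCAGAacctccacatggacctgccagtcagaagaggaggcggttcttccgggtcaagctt
Gm14295: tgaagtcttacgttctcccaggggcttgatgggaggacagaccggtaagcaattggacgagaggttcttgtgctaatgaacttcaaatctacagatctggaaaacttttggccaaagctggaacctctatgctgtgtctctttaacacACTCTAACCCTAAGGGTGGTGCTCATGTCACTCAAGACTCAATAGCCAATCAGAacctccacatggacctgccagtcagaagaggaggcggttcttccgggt
Gm14391: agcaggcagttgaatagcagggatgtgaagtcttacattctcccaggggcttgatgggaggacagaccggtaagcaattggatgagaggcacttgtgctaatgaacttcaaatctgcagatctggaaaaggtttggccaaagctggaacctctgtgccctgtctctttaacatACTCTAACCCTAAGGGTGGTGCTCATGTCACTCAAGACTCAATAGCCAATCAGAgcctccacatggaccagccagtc
Gm14440: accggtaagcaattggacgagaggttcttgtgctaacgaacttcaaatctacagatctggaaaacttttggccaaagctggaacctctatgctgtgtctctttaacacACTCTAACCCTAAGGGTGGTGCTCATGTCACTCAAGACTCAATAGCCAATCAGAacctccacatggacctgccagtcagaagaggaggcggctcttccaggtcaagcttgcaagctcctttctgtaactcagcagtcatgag

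In the copies that were in all 4 lists, peaks were not weaker in WT keratinocytes after wounding. For *Gm14391* the −log10 p was 8.47 in WT unwounded, 16.9 in WT wounded, 16.1 in *Grhl3*-cKO unwounded and 10.6 in *Grhl3*-cKO wounded keratinocytes. For *Gm14440* it was 8.54, 17.0, 12.9 and 11.9 in the same order. The wounded WT library therefore had the highest value at both, although it listed no peak at *Gm14305*, *Zfp967* or *Gm14295*.

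A further cluster lay on chromosome 4 among the *Skint* genes, which code for butyrophilin-like membrane proteins of skin and thymus, the founding member *Skint1* being needed for the γδ T cells of the epidermis. Of the 36 merged regions from *Slc5a9* through this cluster, 17 were listed only in *Grhl3*-cKO libraries, 10 of them in both lists, and these 17 lay between chr4:111898826 and chr4:113451048. By the lower of its values in both lists, the strongest was in an intron of *Skint4* at chr4:112080104-112080422, with fold enrichments of 7.05 and 6.42 and −log10 p of 12.5 in *Grhl3*-cKO unwounded and 10.1 in *Grhl3*-cKO wounded keratinocytes. The *Skint4* promoter at chr4:112072483-112073005 had −log10 p of 14.8 and 8.72, and the *Skint3* promoter at chr4:112231796-112232396 had 8.42 and 6.74. By contrast, the *Skint1* promoter at chr4:112005858-112006396 was in all 4 lists, with −log10 p of 7.31 in WT unwounded, 8.60 in WT wounded, 7.94 in *Grhl3*-cKO unwounded and 7.40 in *Grhl3*-cKO wounded keratinocytes. Of the other regions in this stretch, 14 had peaks in both genotypes and 5 in WT lists only. The cluster was thus mixed, with runs of 7 neighbouring *Grhl3*-cKO-only regions at chr4:112072483-112489966 and again at chr4:112788840-113321033.

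RNA of *Skint3*, *Skint4*, *Skint9* and *Skint11* separated the WT libraries by replicate number and not by wounding. *Skint4* had 324 and 0 counts in WT unwounded replicates 1 and 2, 343 and 0 in WT wounded replicates 1 and 2, 622 in *Grhl3*-cKO unwounded and 417 and 768 in *Grhl3*-cKO wounded keratinocytes. *Skint3* had 595 and 0, 451 and 0, 393, and 506 and 600 counts in that order, and *Skint9* had 73 and 0, 122 and 0, 104, and 149 and 173. Both WT libraries numbered 2 were thus at 0 while those numbered 1 were in or near the range of the *Grhl3*-cKO libraries. These were the 3 genes of all those listed that had 0 counts in exactly these 2 libraries and more than 20 in each of the others. Of the 21 pairs of libraries, 1 other had any such gene, the WT unwounded pair with *Mmp9*. *Skint11* had 14 and 0, 54 and 0, 22, and 107 and 58 counts. The other genes of the family were present in every library. Lower in the WT libraries numbered 2 of both conditions were *Skint1*, *Skint2*, *Skint5* and *Skint6*: *Skint1* had 568 and 181 counts in WT unwounded, 458 and 271 in WT wounded, 622 in *Grhl3*-cKO unwounded and 795 and 1095 in *Grhl3*-cKO wounded keratinocytes, and *Skint6* had 100 and 27, 159 and 15, 230, and 205 and 475. The rest did not follow the replicate number in this way. *Skint7* counts were 30 and 50 for WT without a wound, 123 and 117 for WT after wounding, 112 in *Grhl3*-cKO unwounded and 141 and 194 in *Grhl3*-cKO wounded keratinocytes, so that the WT libraries separated by wounding. *Skint8* had 18 and 99, 71 and 99, 71, and 44 and 58 counts in that order, higher in the WT libraries numbered 2, and *Skint10* had 21 and 47, 137 and 38, 134, and 95 and 118.

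Between the wounded groups the log2 fold change was 1.99 for *Skint4* (SE 1.25, unadjusted P = 0.133), 1.49 for *Skint3* (SE 1.31, unadjusted P = 0.273), 1.53 for *Skint1* (SE 0.41, unadjusted P = 0.00168) and 2.15 for *Skint6* (SE 0.73, unadjusted P = 0.00964), genes singled out after their values were seen. After Benjamini-Hochberg correction in edgeR's quasi-likelihood test, all 4 had an adjusted p of 1.0. The *Skint* genes are similar in sequence, and reads without a unique place or with an ambiguous gene were counted under no gene. Reads that fit several *Skint* genes may therefore be missing from their counts, which are uncertain. Which mice gave the pooled WT ATAC-seq libraries is not stated in the labels, and a link between the replicates at 0 and the missing WT peaks was not tested. The window of the *Skint4* intron region is shown as the strongest region of both lists outside the zinc finger cluster, by the lower of its values, from the + strand at chr4:112080113-112080412, with the RUNX letters in capitals.
Skint4 region: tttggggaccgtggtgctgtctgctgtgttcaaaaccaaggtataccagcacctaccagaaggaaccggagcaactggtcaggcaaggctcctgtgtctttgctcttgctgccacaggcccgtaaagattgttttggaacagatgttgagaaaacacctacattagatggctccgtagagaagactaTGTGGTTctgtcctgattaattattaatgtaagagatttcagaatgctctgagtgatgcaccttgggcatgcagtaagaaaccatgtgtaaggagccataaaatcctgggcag

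The longest uninterrupted run of *Grhl3*-cKO-only regions was on chromosome 6, in intergenic DNA between *Hrh1*, a histamine receptor gene, and *Atg7*, which acts in autophagy. Between chr6:114497174 and chr6:114629533, 22 of 23 merged regions were listed only in *Grhl3*-cKO libraries, 11 in both lists, 8 in the unwounded list and 3 in the wounded list. The remaining region, chr6:114531297-114531505, had a WT wounded peak with a fold enrichment of 3.17 and a −log10 p of 3.65, and it split the others into runs of 8 and 14. The 11 regions of both lists had fold enrichments of 2.60 to 4.42 and −log10 p of 3.69 to 9.97. Their median −log10 p was 4.64 in *Grhl3*-cKO unwounded and 5.53 in *Grhl3*-cKO wounded keratinocytes, near the 4.65 and 5.04 of all regions in both lists and under the 9.21 and 10.6 of the zinc finger cluster. Windows of the 22 *Grhl3*-cKO-only regions were a median of 84.7% repeat. RNA of the flanking genes did not separate the genotypes without a wound. *Atg7* had 475 and 308 counts in WT unwounded and 330 in *Grhl3*-cKO unwounded keratinocytes. After wounding it had 288 and 405 in WT and 408 and 445 in *Grhl3*-cKO keratinocytes. In CPM these wounded values were 17.2 and 26.3 against 27.9 and 30.7 (log2 fold change 0.43, SE 0.30, unadjusted P = 0.175 by edgeR's quasi-likelihood test). *Hrh1* had 0 to 25 counts per library. Its wounded values were 0.775 and 0.975 CPM in WT against 0.41 and 0.621 CPM in *Grhl3*-cKO keratinocytes (log2 fold change −0.75, SE 1.94). How many of all genes have wounded groups that do not overlap was not counted, so nothing is drawn from the order of these values. The part of the repeats in these peaks was not tested. The window of the strongest of them in *Grhl3*-cKO unwounded keratinocytes, chr6:114554496-114554727, is shown to make the repeat visible, from the + strand at chr6:114554473-114554772, with the 245 bases marked as repeat in capitals.
Atg7 upstream region: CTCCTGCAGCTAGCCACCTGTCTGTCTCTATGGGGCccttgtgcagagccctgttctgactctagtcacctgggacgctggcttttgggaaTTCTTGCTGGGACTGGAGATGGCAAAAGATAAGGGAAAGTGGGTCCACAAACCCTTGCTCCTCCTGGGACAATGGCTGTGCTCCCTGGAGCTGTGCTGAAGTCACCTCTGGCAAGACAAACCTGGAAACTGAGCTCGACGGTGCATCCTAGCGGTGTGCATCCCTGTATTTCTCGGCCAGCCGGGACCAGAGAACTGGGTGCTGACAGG

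Outside these stretches the regions were scattered over the genome. Of the runs of neighbouring *Grhl3*-cKO-only regions, 4128 held a single region, 577 held 2 and 115 held 3. Other long runs were 7 regions on chromosome X at chrX:135055722-135466746, near *Pramel3*, and 6 on chromosome 1 at chr1:85185524-85250879. Regions listed only in WT keratinocytes formed runs as well, the longest with 11 regions at chr4:42172817-42619570. Per 1 Mb the median number of *Grhl3*-cKO-only regions was 2, and the highest was 24 of 70 merged regions at chr1:85000001-86000000, where 20 were listed only in WT keratinocytes. On chromosomes 1 to 19 they were 12.3% to 15.5% of the merged regions, and on chromosome X 176 of 1100 (16.0%). No autosome stood far from the others, and without the stretches on chromosomes 2, 4 and 6 there were 5812 regions.

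To ask whether genes near these regions differed in RNA, each region within 10 kb of a gene start was assigned to its nearest gene. This gave 2528 genes, of which 1531 were listed in the count tables and 1188 (77.6%) passed the filter on low counts. In *Grhl3*-cKO wounded against WT wounded keratinocytes, 71 of the 1188 (5.98%) had an unadjusted P under 0.05 by edgeR's quasi-likelihood test, against 4.04% of all 14045 genes tested. They were 39 genes higher in *Grhl3*-cKO keratinocytes (3.28%, against 1.96% of all genes) and 32 lower (2.69%, against 2.08%). After Benjamini-Hochberg adjustment over all genes 0 of the 1188 passed, with the smallest adjusted p at 0.783 by edgeR's quasi-likelihood test, against 0.0% of all genes. DESeq2, with 63 genes at an unadjusted P under 0.05 (5.30%, against 3.96% of all genes), and edgeR's likelihood ratio test, with 87 (7.32%, against 6.22%), also gave 0 of the nearest genes after adjustment. The quasi-likelihood test with no expression filter gave 96 of 1297 nearest genes (7.40%, against 4.77%). In that fit 11 of the 51 genes that passed adjustment over all genes were nearest genes. Without WT wounded replicate 2, 97 had an unadjusted P under 0.05 (8.23%, against 6.16%) and 4 of the 21 genes that passed adjustment were nearest genes. Without WT wounded replicate 1 there were 59 (5.02%, against 4.03%) and 1 of 8. In these last fits the lone WT wounded library is assumed to vary like the other groups. The counts after adjustment, there and with no expression filter, have no share over all genes tested beside them. They are not read as above or below the background.

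The log2 fold changes of these nearest genes, on a scale that TMM centres near 0 for most genes, had a median of 0.00 with quartiles at −0.20 and 0.23, and all genes tested had a median of −0.01 with quartiles at −0.24 and 0.23. The share with an unadjusted P under 0.05 was 44 of 847 genes (5.19%) for regions in the unwounded list only, 19 of 227 (8.37%) for the wounded list only and 10 of 143 (6.99%) for both. For regions at promoters it was 24 of 549 (4.37%), near the background. Genes nearest to regions listed only in WT keratinocytes had a share of 6.05%, close to that for *Grhl3*-cKO-only regions.

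The genes named next had the smallest unadjusted P on either side among nearest genes of regions with a *Grhl3*-cKO wounded peak, and none passed adjustment in this test. In other settings 2 of them did: the adjusted p of *H60c* was 0.0115 with no expression filter and 0.0424 without WT wounded replicate 2, and ranged up to 1.0, and that of *Fam167a* was 0.0295 with no expression filter and ranged up to 1.0, after Benjamini-Hochberg correction of P from edgeR's quasi-likelihood test. Among those higher in *Grhl3*-cKO wounded keratinocytes was *H60c*, a ligand of the NKG2D receptor of skin lymphocytes. It was at 8.17 and 15.4 CPM in WT wounded and 26.5 and 29.7 in *Grhl3*-cKO wounded keratinocytes, and at 19.9 and 19.5 in WT unwounded and 49.4 in *Grhl3*-cKO unwounded keratinocytes. Its log2 fold change between the wounded groups was 1.25 (SE 0.30, unadjusted P = 0.000804). Both wounded WT libraries were under both wounded *Grhl3*-cKO libraries, and the unwounded libraries were ordered alike. Its region overlapped an exon at chr10:3267339-3267590 (fold 3.49, −log10 p 4.06). *Txnip*, which binds thioredoxin and limits glucose uptake, was at 92.2 and 94.7 CPM in WT wounded and 131 and 148 in *Grhl3*-cKO wounded keratinocytes (log2 fold change 0.58, SE 0.17, unadjusted P = 0.00344), and at 108 and 108 in WT unwounded and 187 in *Grhl3*-cKO unwounded keratinocytes. Its promoter region was chr3:96557736-96557921 (fold 3.74, −log10 p 4.52). The groups of *Txnip* did not overlap in either condition.

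The other 3 higher genes were *Ptgs1*, *Pnpla1* and *Pik3c2g*. *Ptgs1*, a cyclooxygenase of prostaglandin synthesis, was at 75.2 and 74.4 CPM in WT wounded and 104 and 111 in *Grhl3*-cKO wounded keratinocytes (log2 fold change 0.52, SE 0.17, unadjusted P = 0.00822), while its unwounded values of 105 and 94.2 in WT and 96.2 in *Grhl3*-cKO overlapped. *Pnpla1*, which makes the acylceramides of the skin barrier, had 6.50 and 7.54 against 12.6 and 15.3 (0.99, SE 0.34, unadjusted P = 0.0102), with a region in both lists at chr17:28855406-28856094. *Pik3c2g*, a class II phosphoinositide 3-kinase gene with 2 regions, had 2.62 and 4.75 against 7.38 and 11.7 (1.37, SE 0.49, unadjusted P = 0.0127). For *Pik3c2g* the *Grhl3*-cKO unwounded library was also high, at 11.6 against 2.11 and 2.78 in WT unwounded keratinocytes. The calls of *Pnpla1* and *Pik3c2g* were lost without WT wounded replicate 1 (unadjusted P = 0.0552 and 0.0983) or *Grhl3*-cKO wounded replicate 2 (unadjusted P = 0.0642 and 0.132). With 1 genotype term over all 7 libraries the calls of *Ptgs1* (log2 fold change 0.30, unadjusted P = 0.0673) and *Pnpla1* (0.38, unadjusted P = 0.285) were lost.

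The 5 genes lower in *Grhl3*-cKO wounded keratinocytes were *Flna*, *Parva*, *Col12a1*, *Fam167a* and *Plin2*. *Flna*, the actin cross-linker filamin A, was at 990 and 1000 CPM in WT wounded and 819 and 571 in *Grhl3*-cKO wounded keratinocytes (log2 fold change −0.52, SE 0.17, unadjusted P = 0.00798), with a promoter region at chrX:74246372-74246948. *Parva*, the focal adhesion protein α-parvin, was at 61.9 and 67.7 against 46.9 and 35.8 (−0.65, SE 0.21, unadjusted P = 0.00622), with a region in both lists at chr7:112428081-112428479. *Col12a1*, a chain of type XII collagen, was at 191 and 240 against 153 and 114 (−0.69, SE 0.22, unadjusted P = 0.00642). For these 3 the *Grhl3*-cKO unwounded library was also under both WT unwounded libraries, with 492 against 666 and 702 for *Flna*, 45.0 against 57.8 and 57.5 for *Parva* and 98.9 against 121 and 192 for *Col12a1*. Each lost its call without *Grhl3*-cKO wounded replicate 2, with an unadjusted P of 0.0906, 0.0714 and 0.0920, and *Col12a1* also without WT wounded replicate 2, with an unadjusted P of 0.0551.

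*Fam167a* had the smallest unadjusted P of the 10, with 183 and 151 CPM in WT wounded and 107 and 90.9 in *Grhl3*-cKO wounded keratinocytes (log2 fold change −0.76, SE 0.18, unadjusted P = 0.000677). Its promoter region was chr14:63436192-63436410 (fold 3.97, −log10 p 4.94), and the *Grhl3*-cKO unwounded value of 91.7 was under the WT unwounded values of 129 and 115. *Plin2*, a coat protein of lipid droplets, was at 134 and 156 in WT wounded and 85.8 and 110 in *Grhl3*-cKO wounded keratinocytes (−0.57, SE 0.18, unadjusted P = 0.00676). It lost its call without WT wounded replicate 2 (unadjusted P = 0.0592) or *Grhl3*-cKO wounded replicate 1 (unadjusted P = 0.0868), and with the genotype term over all 7 libraries its log2 fold change was −0.09 (unadjusted P = 0.654). For *H60c* and *Fam167a* the adjusted p was 0.783 and for the other 8 genes 1.0, after Benjamini-Hochberg correction of edgeR's quasi-likelihood test.

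In unwounded keratinocytes, where *Grhl3*-cKO is 1 library, no test was run, and a gene was counted when it differed at least 2-fold in the same direction from both WT libraries. Of the 1188 nearest genes, 99 (8.33%) met this, against 10% of all genes. Higher in *Grhl3*-cKO were 53 (4.46%, against 4.98%) and lower were 46 (3.87%, against 5.01%), so nearest genes passed this rule no more often than other genes. Without genes on chromosomes X and Y there were 97 (8.42%, against 9.98% of all genes). Against a single WT library the count was 221 without WT unwounded replicate 1 and 197 without WT unwounded replicate 2, when 21.1% and 18.9% of all genes passed. Over all 7 libraries, 59 nearest genes (4.97%) were higher in every *Grhl3*-cKO library than in every WT library, against 3.99% of all genes, and 35 (2.95%) were lower, against 3.55%.

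Among nearest genes of regions with a *Grhl3*-cKO unwounded peak, *Skint4*, described above, had the largest mean difference on the higher side. It was 4.84 on the log2 scale with a prior count of 2. This value rests on WT unwounded replicate 2, in which the gene had 0 counts: the difference was 1.18 from replicate 1 alone and 8.50 from replicate 2 alone. The next 4 of these nearest genes were near the limit of detection in unwounded keratinocytes. *Abca4*, a lipid transporter known from the retina, had 0 and 0 counts in WT unwounded, 0 and 4 in WT wounded, 36 in *Grhl3*-cKO unwounded and 3 and 5 in *Grhl3*-cKO wounded keratinocytes, with an unwounded-only promoter region at chr3:122130858-122131072. *Frem3*, of a family of basement membrane proteins, had 0 and 0, 26 and 11, 22, and 6 and 11 counts in that order, and *Ptprn2*, a phosphatase-like protein of secretory granules, had 0 and 4, 16 and 26, 29, and 4 and 34. In CPM the *Grhl3*-cKO unwounded library was the highest for *Abca4* and, by a small margin, for *Frem3* (1.66, against 1.55 in WT wounded replicate 1), while *Ptprn2* was at 2.19 there and at 2.35 in *Grhl3*-cKO wounded replicate 2. *Akr1c19*, an aldo-keto reductase gene, had 16 counts in that library and 0 in the other 6.

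On the lower side, *Pycr1*, an enzyme of proline synthesis, had 21 and 27 counts in WT unwounded, 43 and 14 in WT wounded, 1 in *Grhl3*-cKO unwounded and 0 and 6 in *Grhl3*-cKO wounded keratinocytes, under every WT library in all 3 *Grhl3*-cKO libraries. Its region was at the promoter, chr11:120643667-120644080 (fold 3.20, −log10 p 3.66). *Cacna1g*, a T-type calcium channel gene, had 40 and 57, 35 and 12, 4, and 24 and 30 counts in the same order, and *Mtmr7*, a myotubularin-related phosphatase gene, had 19 and 21, 49 and 9, 1, and 13 and 23. In these the wounded groups overlapped. *Gm31763* had 24 and 10, 18 and 14, 0, and 18 and 14, and *1700012D14Rik* had 18 and 8, 0 and 1, 0, and 10 and 2. Because several of the genes other than *Skint4* are at 0 in a group, no fold is given for them.

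Genes of epithelial programs had *Grhl3*-cKO-only regions in or within 10 kb of them at uneven rates, while 3656 of all 21924 protein-coding genes (16.7%) had one. Regions listed only in WT keratinocytes lay in or near 5678 of all protein-coding genes (25.9%), and near 2 of 6 genes of the GRHL family, 3 of 8 basal, 7 of 19 junction, 5 of 14 suprabasal, 8 of 16 wound, 7 of 14 AP-1 and stress and 7 of 15 hair follicle and sebaceous genes. In the family of *Grhl3* itself, 4 of 6 genes did. *Grhl2*, the paralogue that maintains epithelial junctions, had 2 unwounded-only regions in introns, at chr15:37281787-37282058 (fold 4.62, −log10 p 6.55) and chr15:37313035-37313229 (4.38 and 6.02), and *Grhl1*, which acts in epidermal differentiation, had an intronic region in both lists at chr12:24592137-24592441 (−log10 p 3.78 and 5.03). *Tfcp2* and *Tfcp2l1* had 1 unwounded-only region each, and *Grhl3* had none. RNA of *Grhl2* was even across libraries, at 158 and 154 CPM in WT unwounded, 148 and 155 in WT wounded, 186 in *Grhl3*-cKO unwounded and 161 and 155 in *Grhl3*-cKO wounded keratinocytes. Of the family, 0 of 6 genes had an unadjusted P under 0.05 between the wounded groups by edgeR's quasi-likelihood test (all genes 4.04%).

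Basal keratinocyte genes had such a region in 5 of 8 cases. They were *Itga6* and *Col17a1*, of the hemidesmosome, *Dst*, which links it to keratins, the basal keratin gene *Krt5* and *Trp63*, the transcription factor of epidermal stem cells, with −log10 p of 3.48 to 5.64. Long genes offer more room for a region, and gene length was not taken into account. Junction genes and genes tied to GRHL factors had one in 8 of 19 cases, among them the E-cadherin gene *Cdh1* with an unwounded-only promoter region at chr8:106603252-106603443 (fold 3.82, −log10 p 4.86), the P-cadherin gene *Cdh3*, and the desmosome genes *Dsp*, *Pkp1* and *Jup*. Of the 8 genes only 1 had its region from the wounded list, in an intron of the tight junction gene *Ocln* at chr13:100551427-100551871 (3.43 and 4.10). Between the wounded groups, 0 of 8 basal and 0 of 19 junction genes had an unadjusted P under 0.05 by edgeR's quasi-likelihood test. The share over all genes was 4.04%, and the median log2 fold changes of RNA were 0.07 and −0.03.

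Suprabasal genes had a region in 2 of 14 cases, *Grhl1* and *Krt1* (14.3%, near the 16.7% of all protein-coding genes). In RNA, 6 of the 13 tested were higher in *Grhl3*-cKO wounded keratinocytes at an unadjusted P under 0.05 and 0 lower (all genes 1.96% and 2.08%). Near *Krt1*, a keratin of differentiating layers, the region was unwounded-only at chr15:101855407-101855946 (3.56 and 4.68). *Krt1* RNA was at 1490 and 2580 CPM in WT wounded and 3160 and 3760 in *Grhl3*-cKO wounded keratinocytes (log2 fold change 0.77, SE 0.20, unadjusted P = 0.00177), with 2850 and 3550 in WT unwounded and 4060 in *Grhl3*-cKO unwounded keratinocytes. Of the wound genes 4 of 16 had a region: *Hbegf*, an EGF receptor ligand, at its promoter in both lists (chr18:36515752-36516005, −log10 p 6.23 and 3.99), the fibronectin receptor gene *Itga5* with 2 promoter regions, the protease gene *Mmp9* and the urokinase receptor gene *Plaur*. Of these 16 genes, 5 were lower and 0 higher in *Grhl3*-cKO wounded keratinocytes at an unadjusted P under 0.05, and *Hbegf* was not among them, with 164 and 156 CPM in WT wounded and 186 and 187 in *Grhl3*-cKO wounded keratinocytes (log2 fold change 0.22, SE 0.17, unadjusted P = 0.195). Among the 5 were *Itga5*, with 28.2 and 45.7 CPM in WT wounded and 26.2 and 15.1 in *Grhl3*-cKO wounded keratinocytes (−0.84, SE 0.34, unadjusted P = 0.0268), and *Mmp9*, with 8.82 and 38.9 against 10.8 and 3.25 (−1.76, SE 0.62, unadjusted P = 0.0129). The wounded groups of *Mmp9* overlapped. Its unwounded counts went the other way, with 0 and 0 in WT and 32 in *Grhl3*-cKO keratinocytes. *Plaur* had 12.3 and 7.48 against 9.43 and 11.7 (0.09, SE 0.42, unadjusted P = 0.827). The AP-1 and stress list had 4 of 14, *Jun*, *Fosb*, *Klf6* and *Ier3*, and the hair follicle and sebaceous list 4 of 15, *Lgr5*, *Nfatc1*, *Tcf7l1* and *Ptn*, the last with the strongest peak of these genes at chr6:36772048-36772736 (fold 4.82, −log10 p 7.07). In RNA, 3 of the 13 tested AP-1 and stress genes were higher and 0 lower in *Grhl3*-cKO wounded keratinocytes at an unadjusted P under 0.05, and 0 of the 15 hair follicle and sebaceous genes were higher and 2 lower.

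Genes of cells that the sort was meant to remove also had *Grhl3*-cKO-only regions. Among 12 endothelial genes 4 did (33.3%, against 16.7% of all protein-coding genes), *Tek*, *Flt1*, *Erg* and *Cldn5*, while 7 (58.3%, against 25.9%) had a region listed only in WT keratinocytes, and the *Tek* region, in an intron of this angiopoietin receptor gene at chr4:94746217-94746734, was in both lists with −log10 p of 9.35 and 4.27. The summed RNA of the endothelial list was 7.08 and 7.12 CPM in WT unwounded, 35.0 and 19.6 in WT wounded, 2.04 in *Grhl3*-cKO unwounded and 16.2 and 23.1 in *Grhl3*-cKO wounded keratinocytes, with *Vwf* the most abundant gene and *Sox17* at 0 in every library. *Tek* had 4 and 0, 50 and 11, 7, and 6 and 16 counts in the same order. The list was thus lowest in the RNA of the condition with the stronger *Tek* peak, and the part of endothelial cells in these regions was not tested. In bulk samples, fewer cells of a type and less RNA per cell cannot be told apart.

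For fibroblast genes, 5 of 12 had a region (41.7%, against 16.7% of all protein-coding genes). A region listed only in WT keratinocytes was near 1 of 12 (8.33%, against 25.9%). Those with a *Grhl3*-cKO-only region were *Col1a1*, *Col1a2*, *Col3a1*, *Fbn1* and *Dpt*, and the *Col1a2* promoter region at chr6:4505197-4506072 was in both lists with −log10 p of 3.80 and 4.27. The summed RNA of the list was 106 and 111 CPM in WT unwounded, 106 and 178 in WT wounded, 105 in *Grhl3*-cKO unwounded and 155 and 145 in *Grhl3*-cKO wounded keratinocytes, led by *Sparc*. Single genes with a region were not level in the unwounded libraries. *Col3a1* had 4 counts in *Grhl3*-cKO unwounded against 155 and 61 in WT unwounded keratinocytes, *Col1a1* 25 against 188 and 108 and *Fbn1* 0 against 57 and 41, while *Col1a2* had 103 against 77 and 62 and *Dpt* 0 against 1 and 0. Mural and smooth muscle genes had a region in 2 of 10 cases, melanocyte genes in 3 of 8, leukocyte genes in 1 of 16, Merkel and neural genes in 1 of 10, erythroid genes in 0 of 6 and sex-linked genes in 0 of 10. In the same order, 1, 1, 2, 4, 0 and 2 of these genes had a region listed only in WT keratinocytes. Over all protein-coding genes the shares were 16.7% for *Grhl3*-cKO-only and 25.9% for WT-only regions. The leukocyte list summed to 0.868 to 5.46 CPM per library, with *Lyz2* its most abundant gene and *Cd3e*, *Cd4*, *Itgax* and *Ikzf1* at 0 in all 7, and the erythroid list to 0.00 to 0.907, with the globin genes at 0 in all 7. The melanocyte list summed to 26.8 to 60.5, led by *Mitf*, and the mural list to 175 to 301, led by *Notch3*. Of the Merkel and neural genes, *Krt20*, *Atoh1*, *Sox2* and *Snap25* were at 0 in all 7. By edgeR's quasi-likelihood test between the wounded groups, 1 of 10 tested endothelial and 3 of 8 tested mural genes were lower in *Grhl3*-cKO keratinocytes at an unadjusted P under 0.05 (all genes 2.08%). By the same test 0 genes of the fibroblast, leukocyte, melanocyte, Merkel and neural, erythroid and sex-linked lists had such a P in either direction (all genes 4.04%). The basal keratinocyte list summed to 36600 to 50600 in the same libraries. The part of any of these cell types in the regions was not tested.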

How the data were processed

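For the 7 RNA-seq libraries the authors deposited unnormalized counts, whole numbers listed by gene symbol. FastQC and kallisto are named in the submitters' processing notes, and which step made the counts is not stated. Entries that name no gene, reads without a unique place (3.46% to 4.74% per library) and ambiguous reads (1.34% to 1.45%), entered neither library sizes nor tests. For ATAC-seq, the methods name Trimmomatic, bowtie2 and MACS2 with mm10, peaks were called on 1 pooled library per condition, and the treatment of reads with several equally good places is not given in the sources used here. Each deposited peak carries its fold over local background (a ratio), a −log10 p-value, a −log10 q-value and a whole-number score, the last not used here.

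Peaks were merged with bedtools 2.31.1 at a distance of 0 bases. Coordinates are mm10, counted from 1. Genes came from the basic set of GENCODE vM21 and sequence and repeat marks from RefSeq GRCm38.p6, read with pysam 0.24.0. Identity was computed with edlib 1.3.9.post1. Counts were tested, two-sided, in 1 fit of all 7 libraries in 4 groups with edgeR 4.0.16 (TMM, filterByExpr, quasi-likelihood test, Benjamini-Hochberg adjustment over all 14045 genes tested of 24421 listed) in R 4.3.3, and the biological coefficient of variation was 31.6%. DESeq2 1.42.0 was an alternative. For unwounded keratinocytes a 2-fold rule was applied to log2 CPM with a prior count of 2. Python 3.11.15 with pandas 2.3.3, numpy 2.4.6 and statsmodels 0.14.6 (Wilson intervals) was used. The fit was also run on simulated data, and no outcome of that is given here.

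The members and lists were chosen with earlier results of these data known. Named regions were, in each subset, the 5 with the highest −log10 p (for both lists, the lower of its values) and the 5 highest at promoters of protein-coding genes, with those nearest to the edge of the rule and those in or within 10 kb of marker genes. Named genes were the 5 higher and 5 lower with the smallest P between the wounded groups among nearest genes of regions with a *Grhl3*-cKO wounded peak, and the 5 largest on each side of the 2-fold rule among those with a *Grhl3*-cKO unwounded peak. The *Skint* genes other than *Skint4*, *Atg7*, *Hrh1*, *Actb*, *Il24*, *Xist*, *Midn*, *Gm14391*, *Gm14440* and *Zfp967* were chosen after their values were seen. Alternatives changed the merge distance, peak threshold, list lengths, promoter window, normalization, test, filter, distance to the gene and the libraries used.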

Additional observations from a re-analysis of the deposited data

Results flagged for a closer look

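For *Pnpla1* and *Plin2*, nearest genes of *Grhl3*-cKO-only regions, the *Grhl3*-cKO libraries lay on one side of the WT libraries after wounding and on the opposite side without it. *Pnpla1* was at 6.50 and 7.54 CPM in WT wounded and 12.6 and 15.3 in *Grhl3*-cKO wounded keratinocytes (log2 fold change 0.99), but at 12.1 and 13.7 in WT unwounded and 8.24 in *Grhl3*-cKO unwounded keratinocytes (log2 difference −0.64). *Plin2* was at 134 and 156 in WT wounded and 85.8 and 110 in *Grhl3*-cKO wounded keratinocytes (log2 fold change −0.57), but at 100 and 95.7 in WT unwounded and 145 in *Grhl3*-cKO unwounded keratinocytes (log2 difference 0.57). The unwounded *Grhl3*-cKO group is 1 library, and the difference between conditions was not tested for either gene.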

How the results depend on the processing

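Of 39 alternative values of the counts and shares, 24 stayed close to the value given above, which means within 1.5 times for a count and within the Wilson 95% interval for the promoter share. The 5870 regions became 3845 at a q of at most 0.01, 3552 with lists of equal length and 22622 without the WT wounded list, and ranged from 4218 to 6010 under the other settings counted by region. Counted by peak, 8676 *Grhl3*-cKO peaks were covered by WT peaks over less than 50% of their length. The promoter share of 14.3% became 12.9% with 500 bases before the gene start, 19.4% with 2500 before and 500 after, 17.5% at a q of at most 0.01 and 11.4% with protein-coding genes only. By their construction, these settings change the peaks or windows counted.

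The 71 nearest genes with an unadjusted P under 0.05 became 125 with a genotype term over all 7 libraries (10.5%, against 8.26% of all genes). At any distance they were 110 (5.82%, against 4.04%) and at promoters 24 (4.37%, against 4.04%). They were 29 for regions with a *Grhl3*-cKO wounded peak (7.95%, against 4.04% of all genes), chosen after seeing the data. Leaving out each wounded library gave 50 to 97, when 3.03% to 6.16% of all genes had such a P. The 99 genes past 2-fold became 43 with at least 10 counts in every library (4.35%, against 4.82% of all genes) and 157 at any distance (8.31%, against 10%), and 197 to 221 without a WT unwounded replicate (16.6% and 18.6%, against 18.9% and 21.1%). Settings added after seeing the data gave 5812 regions without the dense stretches, 5288 without windows mostly of repeat, a promoter share of 14.1% and 77 genes past 2-fold near regions with a *Grhl3*-cKO unwounded peak (7.83%, against 10% of all genes). Of the counts that rest on the *Grhl3*-cKO unwounded RNA library, only the 99 was also taken without genes on chromosomes X and Y.

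With the replicate number as a block the count was 76 in place of 71 (6.40%, against 4.24% of all genes). Deviations of libraries with the same number correlated at 0.154 between WT unwounded and WT wounded keratinocytes. With *Grhl3*-cKO wounded keratinocytes they correlated at −0.0109 for WT unwounded and −0.0386 for WT wounded. These last values cannot show shared animals, since libraries of different genotypes come from different mice. The main fit did not take the numbers as pairs, and whether WT libraries of the same number share an animal is not stated in the labels. Within WT, *Skint3*, *Skint4* and *Skint9* did follow the number, at 0 counts in both libraries numbered 2.

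Of 129 alternative values for the named wounded genes, 116 kept their direction and an unadjusted P under 0.05 and 13 kept only the direction, in fits without a library or with the genotype term. With a prior count of 0.5, 9 of the 10 unwounded differences moved by more than 1 SD of the WT libraries. Leaving out 1 of 2 WT libraries cannot pass that mark by construction. It took *Skint4* from 4.84 to 1.18 without replicate 2 and 8.50 without replicate 1. All counts of regions rest on 1 ATAC library per condition, and the part of depth in them was not tested.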
